A study of Mus musculus with 20 samples.

Results

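The genes of the angiopoietin and Tie receptor pathway, Angpt1, Angpt2, Tek and Tie1, were followed by bulk RNA-Sequencing through the growth of colorectal liver metastases (CRLM) in mice and in myeloid cells sorted from such metastases. These 4 genes, of 54532 listed, were chosen by name. They were found by gene name in the tissue table and by the same Ensembl identifiers in the sorted-cell table, and all 4 were abundant enough to be tested in every comparison. The tissue series held 14 libraries from wild-type C57BL/6 mice. Normal liver of mice given saline was taken at day 0 (con, 2 libraries), and liver remote from the tumor of 1 mouse with metastases at day 12 (L-con, 1 library). Metastases grown from 1000000 Mc38 cells, a mouse colon adenocarcinoma line injected through the spleen into the portal vein, were taken by rising tumor content as Lt (day 9), Mt3 (day 9), Mt2 (day 11), Mt1 (day 11) and Ht (day 12), with 2 libraries each and 3 in Ht. Another 6 libraries came from cells pulled from Mt2 metastases at day 11 with magnetic beads against F4/80 (F4/80+TAM, n = 3) or CD11b (CD11b+TAM, n = 3).

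Angiopoietin 1, the product of Angpt1, is a secreted ligand made largely by perivascular, stromal and some tumor cells, and it activates the receptor tyrosine kinase Tie2, which Tek encodes. Active Tie2 signals through AKT and keeps endothelial junctions closed and vessels quiescent. Angiopoietin 2, from Angpt2, is stored and released by endothelial cells and works as a weak or blocking ligand of the same receptor, depending on context, loosening vessels for remodeling. Tie1 is a relative of Tie2 that forms complexes with Tie2 on endothelial cells. Some monocytes and macrophages of tumors also carry Tie2.

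The tissue libraries held 16032085 to 18246623 counted reads and those of sorted cells 17785496 to 20548370, so that 3 counts, taken here as the floor, corresponded to 0.146 to 0.187 CPM (counts scaled to 1000000 per library); these floors cover counting error only. The first and the third Ht library were described by the study as made identical and were summed to 1 sample, which left 13 tissue samples. The counts of that pair nevertheless differed, with a chi-square per degree of freedom of 30.3, where sampling noise gives about 1 and the other pairs of Ht libraries gave 29.1 and 13.2. The study took a liver per library in each tissue group of 2, whereas nothing states that the sorted-cell libraries came from separate mice, so that p-values there measure only the spread between libraries. The labels give male mice for the tissue and the methods female mice; the tissue held 0 to 3 Xist counts and 348 to 1421 Ddx3y counts per library, and the sorted cells 5547 to 21805 and 0, so the cells are not taken here as coming from the sequenced tumors. Hepatocyte genes fell with tumor content, with summed levels of 191636 and 162959 CPM in con and of only 3336 and 4865 CPM in Ht (9 genes, each called lower), while 9 of 10 macrophage genes were called higher. Con was sampled at day 0 only, so that day and tumor cannot be told apart by a test against con, while L-con and Ht share day 12, Mt2 and Mt1 day 11, and Lt and Mt3 day 9. In whole tissue fewer cells of a type and less RNA per cell cannot be told apart.

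Angpt1 is encoded on the minus strand of GRCm38 chromosome 15 (chr15:42424723-42676977, ENSMUSG00000022309), Angpt2 on the minus strand of chromosome 8 (chr8:18690263-18741562, ENSMUSG00000031465), Tek on the plus strand of chromosome 4 (chr4:94739289-94874976, ENSMUSG00000006386) and Tie1 on the minus strand of the same chromosome (chr4:118471191-118490061, ENSMUSG00000033191). Angpt2 lies inside Mcph1 on the opposite strand but shares 0 exon bases with it. Angpt1 shares 737 of its 5205 exon bases (14.2%) with the antisense gene Gm17473, whose reads the library kit could not tell by strand; Gm17473 itself had 0 to 6 counts in the tissue libraries and 0 in the sorted cells. Tek and Tie1 overlap no other gene of the annotation.

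Angpt1 was the member that rose. The con samples had 2.66 and 1.32 CPM of it and L-con 1.90 CPM (CPM here are normalized by the trimmed mean of M values, TMM). Among the metastases, Lt had 5.16 and 9.32 CPM, Mt3 8.77 and 9.84, Mt2 9.63 and 18.4, Mt1 12.5 and 15.5, and Ht 24.4 and 24.9 CPM. Every metastasis sample lay above the 3 liver samples without tumor, and both Ht samples above every other sample. Groups were separated upward in this way for 37.2% of all genes from con to Lt, 31.1% from con to Mt, 45.2% from con to Ht, 39.4% from Lt to Ht and 18.7% from Mt to Ht. The groups between Lt and Mt1 overlapped with their neighbours, and the Mt2 samples spanned both Mt1 samples. The con mean of 1.99 ± 0.94 CPM (SD, n = 2) compared with 24.7 ± 0.29 CPM (SD, n = 2) for Ht, a 12.4-fold rise.

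**Figure D1:**
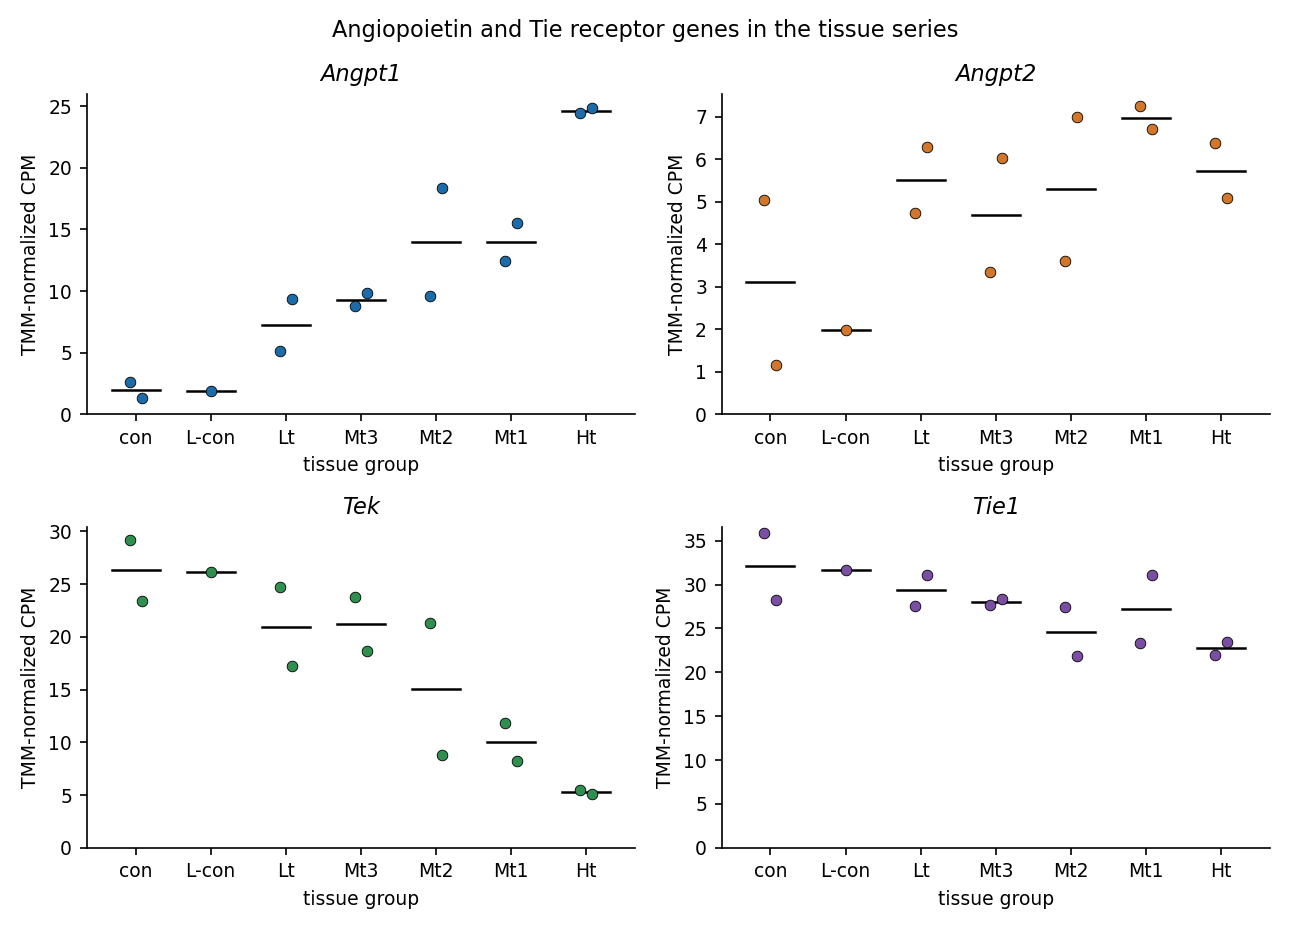
TMM-normalized CPM of Angpt1, Angpt2, Tek and Tie1 in each tissue sample (points) with the group mean (bars), by tissue group in order of tumor content; each panel has its own axis from 0. Angpt1 climbs from 1.99 CPM in con to 24.7 in Ht, Tek drops from 26.3 to 5.28, Tie1 stays between 21.8 and 35.9 in all samples, and the 2 con samples of Angpt2 lie far apart.

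The rise was called in each of the 5 tissue comparisons by the quasi-likelihood test of edgeR, with Benjamini-Hochberg adjustment over 17187 genes. A gene was called where its adjusted p did not exceed 0.05 and its log2 fold change reached 1 in either direction. The log2 fold change of Angpt1 was 1.87 from con to Lt (SE 0.44, adjusted p = 0.0215), 2.62 from con to the mean of Mt3, Mt2 and Mt1 (Mt; SE 0.40, adjusted p = 0.00116) and 3.63 from con to Ht (SE 0.45, adjusted p = 2.25e-04). Within the metastases it was 1.76 from Lt to Ht (SE 0.39, adjusted p = 0.00772) and 1.01 from Mt to Ht (SE 0.29, adjusted p = 0.0377). These comparisons share their con or Ht samples, so they are not separate evidence. The smaller steps lost the call in some fits, of which those that leave 1 sample in a group have less power. Without con replicate 2 or Lt replicate 2 the value from con to Lt was 1.43 or 1.38 and not called (adjusted p = 0.157 and 0.162, in a range of 7.77e-07 to 0.162 over 13 alternatives), without Lt replicate 1 the value from Lt to Ht was 1.42 (adjusted p = 0.0627, range 5.91e-09 to 0.0627 over 14), and the call from Mt to Ht was lost in 8 of 19 alternatives, with values from 0.91 to 1.52 over the 19. In 2 of these 8, without either Ht sample, edgeR called 0 genes in all and the values were 1.02 and 1.00.

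Angpt2, the other ligand, did not pass the test in any tissue comparison. The con samples had 5.05 and 1.16 CPM of it, resting on 57 and 14 counts, and L-con 1.98 CPM. Lt had 4.73 and 6.28 CPM, Mt3 3.35 and 6.02, Mt2 3.60 and 6.98, Mt1 7.24 and 6.71, and Ht 6.38 and 5.08 CPM. The con replicates differed more widely than most metastasis samples did from each other, and the higher con sample lay among Lt, Mt3 and Mt2. The log2 fold change from con to Ht was 0.89 (95% interval -0.26 to 2.05, adjusted p = 0.208), and from Mt to Ht it was 0.04 (95% interval -0.85 to 0.93, adjusted p = 0.957).

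The first of these values depended on which con replicate was kept. Leaving out either leaves con as 1 sample, of 57 or 14 counts, which is assumed to vary like the other groups. Without con replicate 2 the log2 fold change of Angpt2 was 0.15 from con to Mt and 0.18 from con to Ht. Without con replicate 1 Angpt2 was called higher from con to Mt (log2 fold change 2.27) and from con to Ht (2.30). With all samples it was also called from con to Ht under total-count scaling (2.09, adjusted p = 0.0180) and without a filter on low counts (1.02, adjusted p = 0.0258). Con replicate 1 was the higher con sample for all 4 members, and it also had the higher mean level of the 16 pan-endothelial genes (4.49 against 4.07 on the log2(CPM + 1) scale) and of the 12 stellate cell and pericyte genes (3.92 against 3.52). The part of these levels in the Angpt2 values was not tested.

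Tek, the gene of the shared receptor, fell as Angpt1 rose. The con samples had 29.2 and 23.4 CPM of Tek and L-con 26.2 CPM. Lt had 24.7 and 17.2 CPM, Mt3 23.8 and 18.7, Mt2 21.3 and 8.84, Mt1 11.8 and 8.25, and Ht 5.48 and 5.08. The day 9 groups overlapped with con, Mt2 was split between the levels of Mt3 and Mt1, and both Ht samples lay below every other sample, where 40.4% of all genes were separated downward from con to Ht, 41% from Lt to Ht and 22.6% from Mt to Ht. The con mean was 26.3 ± 4.11 CPM (SD, n = 2) and the Ht mean 5.28 ± 0.28 CPM (SD, n = 2), a 4.97-fold drop.

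From con to Lt the log2 fold change of Tek was -0.33 (SE 0.38, adjusted p = 0.580), and from con to Mt it was -0.84 (SE 0.30, adjusted p = 0.0438), short of the fold threshold. The value from con to Mt was -0.25 under total-count scaling (adjusted p = 0.370) and -1.10 without Mt2 replicate 1, where it was called (adjusted p = 0.00219, in a range of 5.57e-04 to 0.370 over 17 alternatives). The fall was called from con to Ht (-2.31, SE 0.40, adjusted p = 9.24e-04), from Lt to Ht (-1.99, SE 0.39, adjusted p = 0.00505) and from Mt to Ht (-1.48, SE 0.34, adjusted p = 0.0182). The last of these was lost when either Ht sample was left out (adjusted p = 0.162 and 0.143, in a range of 9.67e-08 to 0.162 over 19 alternatives), where edgeR called 0 genes in all, and under total-count scaling, where the value was -0.88 and short of the fold threshold. Within Mt2 and Mt1 the sample with less Tek was also the one with less hepatocyte RNA: the mean log2(CPM + 1) of the 9 hepatocyte genes was 12.4 beside 21.3 CPM of Tek and 10.5 beside 8.84 CPM in Mt2, and 12.1 beside 11.8 CPM and 10.3 beside 8.25 CPM in Mt1. In Ht the order was the other way, with 7.61 beside 5.48 CPM and 8.13 beside 5.08 CPM. How far the hepatocyte share set the level of Tek was not tested.

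Tie1, the partner receptor, changed little. The con samples had 35.9 and 28.3 CPM of Tie1 and L-con 31.6 CPM. Lt had 27.5 and 31.1 CPM, Mt3 27.6 and 28.4, Mt2 27.4 and 21.8, Mt1 23.3 and 31.0, and Ht 22.02 and 23.5 CPM. Ht lay below con, but Mt2 and Mt1 reached the level of Ht in 1 sample each. The largest log2 fold change of Tie1 in the tissue was -0.49 from con to Ht (SE 0.19, 95% interval -0.87 to -0.12, adjusted p = 0.0459), which missed the fold threshold. Its direction turned with the scaling in all 5 tissue comparisons, to 0.69 from con to Ht when counts were divided by library totals instead of TMM sizes.

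The TMM factors ran from 0.69 in con to 1.60 in Ht. Under total-count scaling the median log2 fold change of all genes from con to Ht was 1.28, against 0.09 under TMM. Relative to the total-count median, the log2 fold change of Tie1 was -0.58, that of Tek -2.40 and that of Angpt1 3.55, and relative to the TMM median that of Tie1 was -0.59. Without that centring Tek fell by 1.12 on the log2 scale from con to Ht and was still called (adjusted p = 0.00470, range 2.16e-14 to 0.0102 over 14 alternatives), and Angpt1 rose by 4.82. Angpt1 and Tek kept their direction in all 5 tissue comparisons under TMM, total-count and median-of-ratios scaling.

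**Figure D2:**
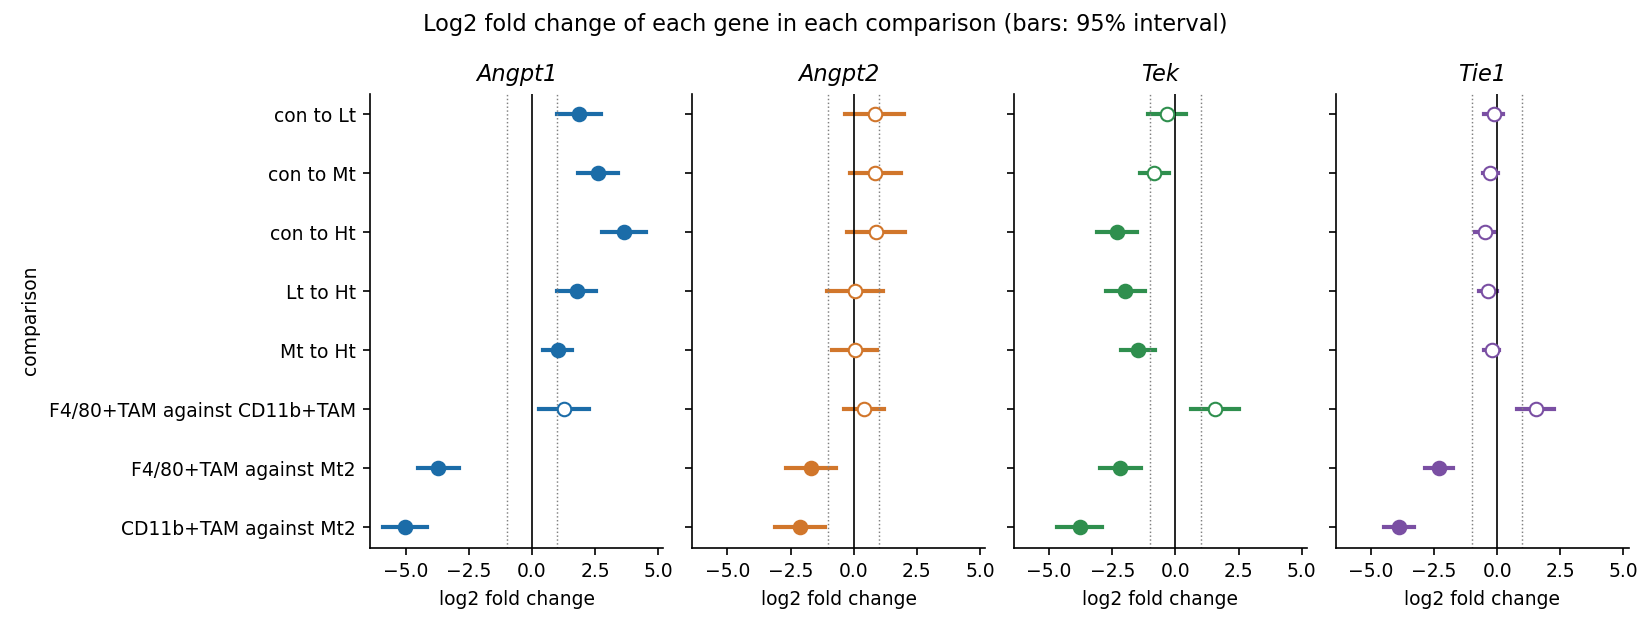
Log2 fold change (points) with its approximate 95% interval (bars, normal quantile). Each gene is shown in the 5 tissue comparisons and the 3 comparisons of sorted cells. Filled points were called by edgeR, open points were not, and dotted lines mark the fold threshold. Angpt1 is called in all 5 tissue comparisons, Tek in the 3 that end in Ht, Angpt2 and Tie1 in none, and all 4 genes are called lower in both sorted populations than in Mt2.

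Of the 4 members, 1 was called from con to Lt, Angpt1, beside 12.7% of all genes tested in either direction and 12.4% higher. From con to Mt 1 was called, Angpt1, beside 30.5% of all genes and 20.2% higher. From con to Ht 2 were called, Angpt1 and Tek, beside 49.9% of all genes (25.8% higher and 24.1% lower), and from Lt to Ht the same 2 beside 31.9% (11.7% higher and 20.2% lower). From Mt to Ht 2 were called, Angpt1 and Tek, beside 14.9% of all genes, of which 1.5% were higher and 13.4% lower. With 4 genes such shares do not set the members apart from the background.

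Per gene length (FPKM, the TMM-normalized CPM divided by the deposited gene length in kilobases), the order of the members changed between normal liver and Ht. In con the receptors led, with Tie1 at 6.52 ± 1.09 FPKM (SD, n = 2) and Tek at 5.58 ± 0.87, which overlapped, followed by Angpt2 at 0.841 ± 0.745 and Angpt1 at 0.382 ± 0.181, which also overlapped. In Ht, Angpt1 at 4.74 ± 0.06 FPKM (SD, n = 2) and Tie1 at 4.63 ± 0.21 came first and overlapped. Angpt2 followed at 1.55 ± 0.25 FPKM and Tek came last at 1.12 ± 0.06, with no overlap between them. Angpt1 thus went from the lowest of the 4 genes to a level above that of its receptor.

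The balance of the ligands is the quantity often read for this pathway. The ratio of Angpt2 to Angpt1 (FPKM + 0.1 each) was 2.40 and 1.17 in con and 1.37 in L-con. Lt had ratios of 1.27 and 0.953, Mt3 of 0.564 and 0.869, Mt2 of 0.552 and 0.548, Mt1 of 0.827 and 0.623, and Ht of 0.381 and 0.303. Angpt2 exceeded Angpt1 in both con samples, in L-con and in 1 Lt sample, and Angpt1 exceeded Angpt2 in the other metastases. The mean log2 ratio was 0.75 ± 0.74 (SD, n = 2) in con and -0.66 ± 0.62 (SD, n = 10) in all metastases, a difference of -1.40 (exact permutation test, two-sided, p = 0.0303, where the smallest p this design allows is 0.0152). Leaving out single samples moved the difference between -1.92 (without con replicate 2) and -0.88 (without con replicate 1). The difference no longer passed in 6 of these 12 fits. Of these, 2 leave 1 con sample and could not pass, as the smallest exact p that can be had there is 0.0909. The others kept both con samples and left out 1 metastasis sample each. With a pseudocount of 1 FPKM in place of 0.1 the difference was -0.83 (exact p = 0.0455). Lt replicate 1 reached a ratio above that of con replicate 2, so the groups overlapped.

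The ratio of the receptors, Tek to Tie1, was compared in the same way after their values had been seen. The con samples had ratios of 0.852 and 0.866 and L-con of 0.866. Lt had 0.939 and 0.584, Mt3 0.901 and 0.692, Mt2 0.815 and 0.435, Mt1 0.538 and 0.289, and Ht 0.276 and 0.242. The 3 liver samples without tumor were nearly equal, and the metastases spread from that level down to Ht. The mean log2 ratio of the metastases minus that of con was -0.74, which did not pass (exact permutation test, two-sided, p = 0.212). Lt replicate 1, Mt3 replicate 1 and Mt2 replicate 1 had ratios of at least 0.815, and the other 7 metastasis samples ratios of at most 0.692.

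**Figure D3:**
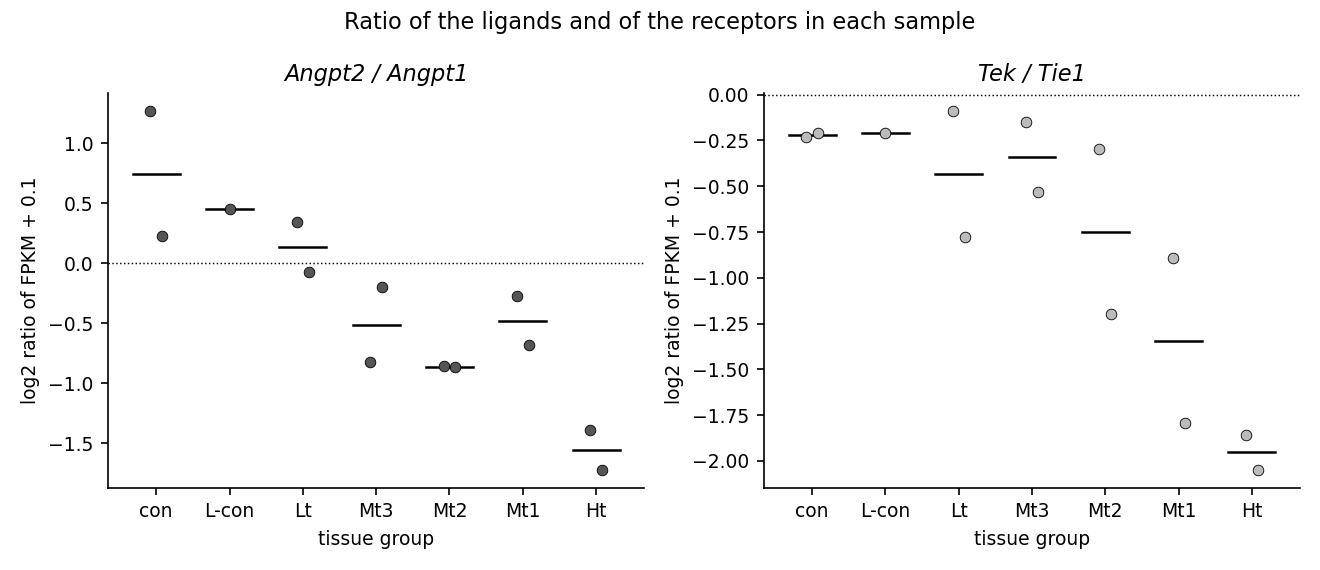
Log2 ratio of FPKM + 0.1 for Angpt2 to Angpt1 (left) and Tek to Tie1 (right) in each tissue sample (points) with the group mean (bars); the dotted line marks equal levels. The con samples lie at 1.27 and 0.22 for the ligands and at -0.23 and -0.21 for the receptors, and the Ht samples at -1.39 and -1.72 and at -1.86 and -2.05.

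Tek, Tie1 and Angpt2 are known mainly from endothelial cells, so the members were set beside 16 pan-endothelial genes. The mean log2(CPM + 1) of those genes ran from 4.07 to 4.63 over the 13 tissue samples, with 4.49 and 4.07 in con and 4.37 and 4.38 in Ht. Taken relative to that mean in the same sample, Tek went from 0.49 ± 0.08 (SD, n = 2) in con to -1.73 ± 0.07 in Ht, and Tie1 from 0.76 ± 0.06 to 0.19 ± 0.05. Angpt1 went from -2.73 ± 0.17 to 0.30 ± 0.01, and Angpt2 from -2.43 ± 0.75 to -1.63 ± 0.21. Tie1 was at 0.31 ± 0.10 in Lt and between 0.19 and 0.31 in all metastasis groups. The mean of the 16 genes itself includes genes that rose, such as Cd34 with a log2 fold change of 4.33 from con to Lt, where Tie1 had -0.13 and the median of the 16 genes was 0.04.

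**Figure D4:**
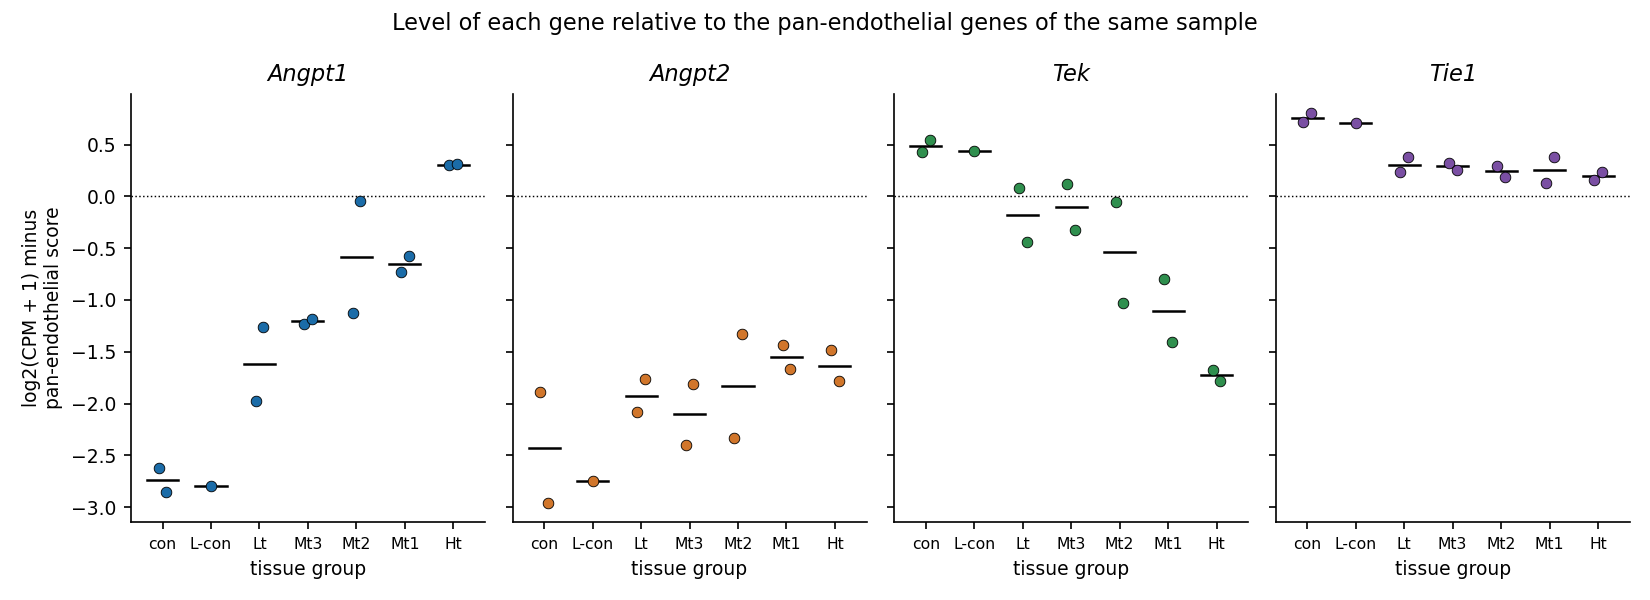
Level of each gene as log2(CPM + 1) minus the mean of the 16 pan-endothelial genes of the same sample, by tissue group (points, samples; bars, group means). Tek falls from 0.49 in con to -1.73 in Ht and Angpt1 climbs from -2.73 to 0.30, while the Tie1 means of the metastasis groups lie between 0.19 and 0.31.

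The endothelial genes did not move as 1 block. From con to Ht 3 pan-endothelial genes were called higher, 4 lower and 9 did not pass, with a median log2 fold change of -0.50. Cd34, a surface marker of capillary and tumor endothelium, rose by 5.78 (SE 0.62, adjusted p = 1.39e-04) and Mcam, which encodes CD146, by 1.60 (SE 0.23, adjusted p = 3.96e-04), while Eng, the endoglin gene, fell by 1.27 (SE 0.23, adjusted p = 0.00125) but was not called under total-count scaling (-0.08), and Cdh5, which encodes VE-cadherin, had -0.05 (SE 0.19, adjusted p = 0.843) but 1.14, called higher, under total-count scaling. Of 12 genes of the sinusoidal endothelium 9 were called lower and 1, Stab1, higher, with a median of -3.10. Stab2, a scavenger receptor of sinusoidal cells, fell by 3.51 (SE 0.52, adjusted p = 4.79e-04), and Clec4g, a lectin of these cells, by 4.64 (SE 0.75, adjusted p = 6.74e-04). Tek, at -2.31, lay between the medians of these lists, and Tie1, at -0.49, at the median of the pan-endothelial list. The pan-endothelial median turned to 0.70 under total-count scaling, with 6 genes called higher, 10 not called and none lower, and the sinusoidal list had 2 higher, 9 lower and a median of -1.91.

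Genes of perivascular cells, which can make angiopoietin 1, were mixed, and their calls depended on the scaling. Of 12 stellate cell and pericyte genes 3 were called higher from con to Ht (Pdgfrb, Acta2 and Cspg4), 5 lower (Rgs5, Reln, Abcc9, Lrat and Ngfr) and 4 did not pass, with a median of -0.61. Under total-count scaling 5 were called higher, with Des and Notch3 added, 1 lower (Reln) and 6 not, and the median turned to 0.58. Pdgfrb, the receptor by which pericytes are recruited, rose by 2.36 (SE 0.30, adjusted p = 2.66e-04), and Rgs5, a pericyte regulator of G protein signaling, fell by 2.09 (SE 0.32, adjusted p = 5.37e-04) but was not called under total-count scaling (-0.90). Platelets, another carrier of angiopoietin 1, could be followed by only 3 of 7 genes, of which Pf4 was called higher and 2 did not pass (median -0.39, and 0.80 under total-count scaling); Pf4 is also made by macrophages.

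Partners of the pathway outside the 4 members were mixed. Of 8 further ligands and partners, 5 were called higher from con to Ht, 2 lower and 1, Itgb1, did not pass (median 1.63, and 2.82 with 6 higher and 2 lower under total-count scaling). Ptprb, the phosphatase VE-PTP that dephosphorylates Tie2, had 224 and 167 CPM in con, and it fell to 22.8 and 28.9 CPM in Ht (log2 fold change -2.92, SE 0.46, adjusted p = 5.99e-04). Its lower samples within Mt2 and Mt1 (45.1 and 48.3 CPM, beside 114 and 86.9) were those in which Tek was lower too, while in Ht the sample with less Ptprb had more Tek. Svep1, an extracellular protein described as a ligand of Tie1, rose by 2.45 (SE 0.41, adjusted p = 8.31e-04), as did the integrin subunit Itgav by 1.79 (SE 0.24, adjusted p = 3.19e-04), Itga5, and Adam17, a sheddase of surface proteins. Lect2, a hepatocyte protein described as a Tie1 ligand, fell by 2.86 (SE 0.63, adjusted p = 0.00340). Angpt4, the remaining angiopoietin, was called higher but had only 1 and 0 counts in con, 2 in L-con and 5 to 51 counts in the metastases.

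Genes that act below Tie2 also split. Of 18 such genes 4 were called higher from con to Ht, 3 lower and 11 did not pass (median -0.14, and 1.04 with 11 higher and 3 lower under total-count scaling). Foxo1, a transcription factor that AKT holds inactive and that drives Angpt2 in endothelial cells, fell to 15.5 ± 0.88 CPM in Ht (SD, n = 2), where con had 77.1 ± 15.4 CPM, a log2 fold change of -2.32 (SE 0.46, adjusted p = 0.00191). The adaptor genes Grb7 and Grb14 fell by 5.07 (SE 0.70, adjusted p = 3.66e-04) and 3.95 (SE 0.60, adjusted p = 5.25e-04), and both are also expressed in hepatocytes. Among the higher genes, Akt1 rose by 1.55 (SE 0.18, adjusted p = 1.99e-04), Klf2, a quiescence factor of endothelium, by 1.37 (SE 0.23, adjusted p = 7.98e-04), and Dok2, an adaptor of Tie2 that is also common in myeloid cells, by 2.89 (SE 0.46, adjusted p = 6.59e-04). These directions held under total-count scaling. Foxo1, Grb7, Grb14, Akt1, Klf2 and Dok2 are expressed in many cell types, and their values in whole tissue do not show signaling.

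Other lists gave the surroundings of these changes from con to Ht. Of 6 angiopoietin-like genes tested 4 were called lower and 2 higher (median -2.72), and under total-count scaling 3 lower and 2 higher (median -1.54). Of 14 genes of vessel sprouting 7 were called higher, 4 lower and 3 did not pass (median 1.26), the VEGF receptors Kdr and Flt4 being among the lower (-1.88, SE 0.34, adjusted p = 0.00115, and -2.30, SE 0.38, adjusted p = 7.44e-04). Under total-count scaling 8 sprouting genes were called higher and 1, Flt4, lower (median 2.44), while Kdr (-0.70), Vegfa (-0.34) and Dll4 (-0.14) were not called. Of 11 hypoxia genes 2 were called higher, 3 lower and 6 did not pass (median -0.15), against 4 higher and 1 lower under total-count scaling (median 1.03). Of 9 neutrophil genes 4 were called higher and none lower (median 2.18), and 8 higher under total-count scaling (median 3.32). Of 8 genes linked to Tie2-expressing macrophages 2 were higher (Stab1 and F13a1) and 2 lower (Cd163 and Lyve1; median 0.87), against 5 higher and 1 lower under total-count scaling (median 2.06).

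Genes whose level followed the members most closely over the 13 tissue samples were taken by Pearson correlation of log2(CPM + 1). For Angpt1 they included Prmt1 (r = 0.99), Nxn, Cplx2 and Prdm16, and for Tek they were Tmem30a (r = 0.99), Btd, Oat, Gm5345 and Qdpr. For Angpt2 the likeness was weaker, led by Ppp4c (r = 0.92), Lmo4, Sergef, Bax and B4galt4. For Tie1 the list was led by Ggt5 (r = 0.89), Rnf31, Son, Ednra and mt-Ty. All 13 points share the gradient of tumor content, and the r values are given as a description only.

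All 4 members were detected in the sorted cells, all below their levels in Mt2. All 10 macrophage genes were called higher in both populations than in Mt2 (median log2 fold change 3.34 in F4/80+TAM and 3.37 in CD11b+TAM). They include the genes of both sort antigens. Adgre1, which encodes F4/80, was at 795 ± 53.5 CPM (SD, n = 3) in F4/80+TAM and 595 ± 27.4 in CD11b+TAM. Itgam, which encodes CD11b, was at 287 ± 29.2 and 433 ± 57.4 CPM in the same order. Neutrophil genes were higher than in Mt2 too. Of 9 such genes 7 were called higher in F4/80+TAM and 1, Mmp9, lower (median 3.97). In CD11b+TAM 8 of them were called higher and 0 lower (median 7.66). Tie1 was at 5.22, 8.38 and 3.42 CPM in F4/80+TAM and at 1.59, 2.08 and 2.24 CPM in CD11b+TAM. Tek was at 3.41, 4.93 and 2.94 CPM in F4/80+TAM and at 0.477, 1.94 and 1.38 CPM in CD11b+TAM. For both receptors every F4/80+TAM library lay above every CD11b+TAM library, as for 11.5% of all 14263 genes. Angpt2 was at 2.03, 1.54 and 2.03 CPM in F4/80+TAM against 1.22, 2.13 and 0.856 in CD11b+TAM, and Angpt1 at 0.715, 1.11 and 1.82 CPM against 0.477, 0.331 and 0.725. The ligands overlapped between the populations, and Angpt1 rested on 7 to 34 counts per library.

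Between the populations 0 of the 4 members were called by edgeR's quasi-likelihood test, beside 0.0771% of 14263 genes (0.00701% higher in F4/80+TAM and 0.0701% lower). At an unadjusted p under 0.05 there were 3 members (Tie1, Tek and Angpt1), beside 1503 of all genes. The log2 fold change of F4/80+TAM over CD11b+TAM was 1.53 for Tie1 (SE 0.38, 95% interval 0.79 to 2.26, adjusted p = 0.212), 1.56 for Tek (SE 0.49, 95% interval 0.60 to 2.52, adjusted p = 0.360), 1.27 for Angpt1 (SE 0.51, adjusted p = 0.464) and 0.40 for Angpt2 (SE 0.41, 95% interval -0.40 to 1.19, adjusted p = 0.662). DESeq2 called 1 member, Tie1 (1.52, adjusted p = 0.0123, in a range of 0.0123 to 0.635 over 13 alternatives), beside 2.1% of all genes (300).

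Endothelial and hepatocyte genes leaned in the same direction, neutrophil genes in the other, and none of them passed the test. Of 14 pan-endothelial genes tested 13 had a positive log2 fold change in F4/80+TAM (median 1.13), as had all 12 sinusoidal genes (median 1.14) and all 8 hepatocyte genes (median 1.08). The summed level of the 16 pan-endothelial genes was 252 to 339 CPM in F4/80+TAM and 170 to 188 in CD11b+TAM, with no gene at 0 in any library. Cdh5 was at 107, 51.6 and 33.4 CPM in F4/80+TAM and at 7.84, 13.2 and 3.95 in CD11b+TAM, and Ptprb at 25.5, 34.8 and 15.98 against 6.78, 8.14 and 2.57. These 2 genes had the largest log2 fold changes of their lists. Cdh5 had 2.93 where the lowest pan-endothelial gene had -0.70, and Ptprb 2.11 where the median of the ligands and partners was 0.13. All 9 neutrophil genes had a negative value (median -3.39), with summed levels of 194 to 850 CPM in F4/80+TAM and 1441 to 6144 in CD11b+TAM. Of 7 genes linked to Tie2-expressing macrophages 6 were positive (median 0.36), and of 7 stellate cell and pericyte genes 4 were (median 0.86). The part of endothelial cells carried through the sort in the values of Tek and Tie1 was not tested. Relative to the pan-endothelial mean of the same library, Tek was at -0.75 ± 0.09 (SD, n = 3) in F4/80+TAM and -1.06 ± 0.48 in CD11b+TAM, and Tie1 at -0.31 ± 0.27 and -0.62 ± 0.15.

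In the remaining lists no gene was called between the populations. Their median log2 fold changes were 0.13 for 5 ligands and partners, 0.13 for 16 genes below Tie2, 0.39 for 5 angiopoietin-like genes, 0.38 for 13 sprouting genes, -0.06 for 11 hypoxia genes, -0.11 for 10 macrophage genes and -0.58 for 3 platelet genes. Single genes ranged widely around these medians, from -2.57 to 0.93 below Tie2 and from -1.29 to 2.02 in the hypoxia list.

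Against the Mt2 tissue libraries, all 4 members were called lower in both populations, beside 42.3% of 18407 genes called in either direction for F4/80+TAM and 43.9% for CD11b+TAM (25.2% and 26.3% lower). In the joint scaling of all 19 samples, Angpt1 was at 14.7 ± 6.50 CPM (SD, n = 2) in Mt2, 1.12 ± 0.52 (SD, n = 3) in F4/80+TAM and 0.454 ± 0.173 (SD, n = 3) in CD11b+TAM. Tek was at 15.8 ± 9.24, 3.47 ± 0.97 and 1.13 ± 0.66 CPM, and Tie1 at 25.8 ± 4.12, 5.24 ± 2.33 and 1.75 ± 0.29. Angpt2 was closest to the tissue, at 5.55 ± 2.50, 1.72 ± 0.26 and 1.25 ± 0.59 CPM. For each of the 4 genes every sorted library lay below both Mt2 samples, as for 38.1% (F4/80+TAM) and 35.6% (CD11b+TAM) of all genes tested. Of 16 pan-endothelial genes 13 were called lower in F4/80+TAM (median log2 fold change -2.09) and 14 in CD11b+TAM (median -3.39), with 0 higher. Of 12 stellate cell and pericyte genes 11 were called lower in each population (medians -4.95 and -4.47), with 0 higher. The part of cell content in the values of the members was not tested.

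**Figure D5:**
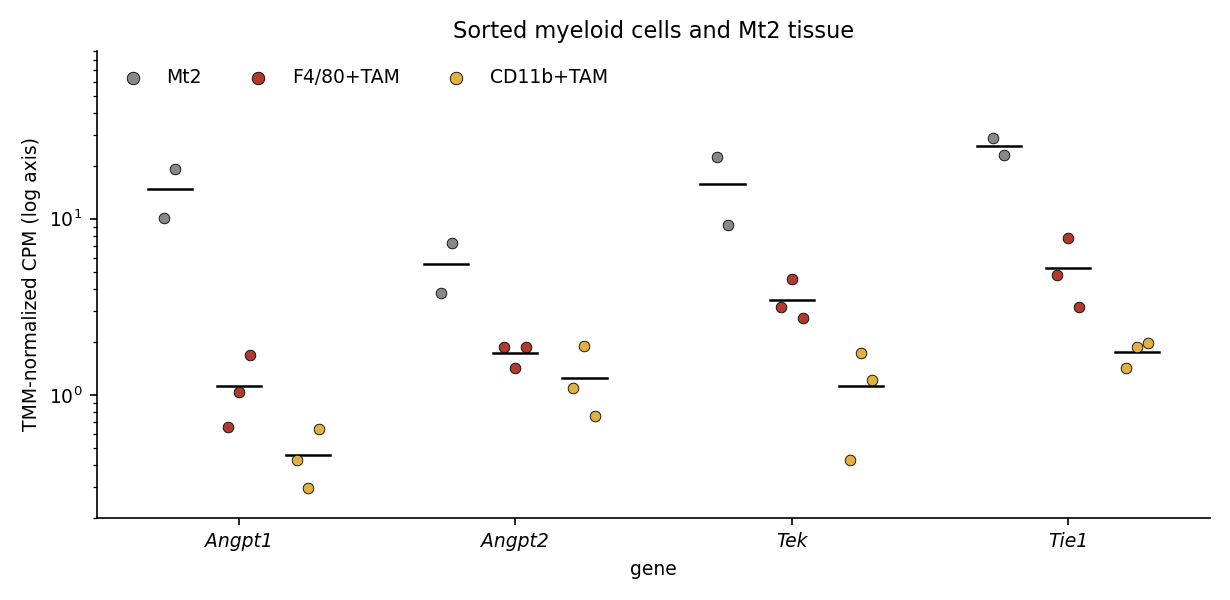
TMM-normalized CPM (log axis) of each gene in Mt2 tissue (2 samples), F4/80+TAM (3 libraries) and CD11b+TAM (3 libraries); points are samples and bars are means. Every sorted library lies below both Mt2 samples, and for Tek and Tie1 the F4/80+TAM libraries lie above those of CD11b+TAM.

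The log2 fold change to F4/80+TAM was -3.71 for Angpt1 (SE 0.41, adjusted p = 3.65e-06), -2.18 for Tek (SE 0.42, adjusted p = 5.00e-04), -2.30 for Tie1 (SE 0.28, adjusted p = 8.95e-06) and -1.69 for Angpt2 (SE 0.50, adjusted p = 0.00996). To CD11b+TAM it was -5.04 for Angpt1 (SE 0.45, adjusted p = 4.76e-07), -3.79 for Tek (SE 0.45, adjusted p = 6.59e-06), -3.88 for Tie1 (SE 0.30, adjusted p = 1.67e-07) and -2.13 for Angpt2 (SE 0.50, adjusted p = 0.00232). Both comparisons share the Mt2 samples, and bead-sorted cells, their table and their sex-linked genes differ from the tissue together and cannot be told apart. Without Mt2 replicate 2 the value of Angpt2 in F4/80+TAM was -1.09 and not called (adjusted p = 0.154, in a range of 1.11e-04 to 0.154 over 13 alternatives).

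In the sorted cells Angpt2 exceeded Angpt1, as in normal liver. The ratio of Angpt2 to Angpt1 per length was 2.68, 1.63 and 1.44 in F4/80+TAM and 2.17, 3.93 and 1.37 in CD11b+TAM, against 0.551 and 0.547 in Mt2 in the same scaling. At these levels the ratio in CD11b+TAM rests on 7 to 11 counts of Angpt1. Tek to Tie1 was 0.711, 0.637 and 0.911 in F4/80+TAM and 0.489, 0.978 and 0.715 in CD11b+TAM, which overlapped with each other and with the Mt2 samples at 0.815 and 0.435.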

How the data were processed

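Raw gene counts per library were deposited by the authors without normalization or filtering in a tissue table and a sorted-cell table of 54532 genes each; the submitters' processing notes name CASAVA, HISAT2 2.0.5, featureCounts 1.5.0-p3, GRCm38 and mm10. The annotation release is not given in the sources used here; positions and exon lengths of the 4 genes match GENCODE M21. Groups came from the labels, and 0 columns were unmapped. Comparisons were fitted with edgeR 4.0.16 under R 4.3.3 (TMM, filterByExpr, quasi-likelihood F test, Benjamini-Hochberg adjustment) in a tissue fit (13 samples, 7 groups, 17187 genes), a sorted-cell fit (6 libraries, 14263 genes) and a joint fit (19 samples, 9 groups, 18407 genes). Standard errors come from the F statistic. List levels use log2(CPM + 1), ratios FPKM + 0.1. L-con, with 1 library, was not tested. Genes named were the 4 members, the genes of 13 hand-written lists (Aldoa, with several entries under its symbol, and Tf, not matched, left out), of which the examples described were chosen after their values were seen, and the 5 genes most correlated with each member at a mean log2 CPM of at least 1; some of these genes are not reported here. The members and lists were chosen with earlier results of these data known. Alternatives were DESeq2 1.42.0, other scalings and filters (none, or 10 counts in every library), no fold threshold, fewer groups, other Ht handling, a replicate block, pseudocounts of 1 and 0.01, and leaving out each replicate. List counts under other scalings, exchanged replicate numbers and the receptor ratio were chosen after seeing the data. Only the main edgeR fit and its calls were tested on simulated data, and only for some of the comparisons.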

Additional observations from a re-analysis of the deposited data

How the results depend on the processing

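Of 458 values of single members recomputed under the alternatives, 422 kept their direction and their side of the threshold, 15 lost and 8 gained the call, and 13 changed sign, none of which had been called. Under total-count scaling Tie1 turned to 0.18 (con to Lt), 0.37 (con to Mt), 0.69 (con to Ht), 0.52 (Lt to Ht) and 0.33 (Mt to Ht), because TMM factors differ between groups. Tie1 turned to 0.039 from con to Lt without con replicate 1. Angpt2, close to 0 between metastases, turned to -0.11 from Lt to Ht without Lt replicate 1 and without Ht replicate 1, to -0.012 (Lt to Ht) and -0.032 (Mt to Ht) unsummed with Ht_3 left out, and from Mt to Ht to -0.08, -0.06 and -0.13 without Mt3 replicate 1, Mt2 replicate 1 and Ht replicate 1. Over all single replicates left out, Tie1 ran from -0.30 to 0.039 (con to Lt) and Angpt2 from -0.11 to 0.28 (Lt to Ht) and -0.13 to 0.23 (Mt to Ht).

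The number of members called from Mt to Ht was 1 in place of 2 under total-count scaling, with only the groups compared and with Mt as a single group. It was 2 in place of 1 from con to Mt with no fold threshold (Tek added), 1 in place of 0 between the sorted populations with DESeq2, and 2 in place of 4 in both comparisons with Mt2 at 10 counts in every library, where only 2 members were tested. Leaving out single replicates gave 0 to 1 members from con to Lt, 1 to 2 from con to Mt, 2 to 3 from con to Ht, 1 to 2 from Lt to Ht, 0 to 2 from Mt to Ht, 0 between the sorted populations, 3 to 4 for F4/80+TAM against Mt2 and 4 for CD11b+TAM against Mt2. Where this left a group with 1 sample, that sample was assumed to vary like the other groups. The Angpt2 to Angpt1 difference was -0.83 with a pseudocount of 1 and -1.53 with 0.01, and ran from -1.92 to -0.88 when single samples were left out and passed in 6 of those 12 cases; the 2 that left 1 con sample could not pass, with a smallest exact p of 0.0909. The cause of the other changes was not tested.

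Counts over all genes moved too. From Lt to Ht they were 8297 (5480) and from Mt to Ht 4360 (2563) under total-count scaling; at 10 counts in every library they were 1154 (2177) from con to Lt, 3241 (5247) from con to Mt, and 3742 (7793) and 3870 (8082) for F4/80+TAM and CD11b+TAM against Mt2; with no fold threshold they were 8115 from con to Mt and 3888 from Mt to Ht. Between the sorted populations the count was 300 with DESeq2, 242 without a filter, 78 with the block, 6 under total-count scaling and 5 at 10 counts, in place of 11. Without single replicates the counts ran from 735 to 2284 (con to Lt), 3089 to 6224 (con to Mt), 2786 to 5960 (Lt to Ht), 0 to 3549 (Mt to Ht) and 0 to 136 (sorted populations). Under total-count scaling the higher and lower calls from con to Ht were 8822 and 2249, in place of 4437 and 4139.

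The replicate numbers did not pair the samples: the correlation of same-numbered deviations ran from -0.363 to 0.143. Fitted with a block for the replicate number, members called were 1, 1, 2, 2 and 2 in the tissue comparisons from con to Lt, con to Mt, con to Ht, Lt to Ht and Mt to Ht, 0 between the sorted populations and 4 in each comparison with Mt2, as without it. With the numbers of Lt exchanged, a pairing chosen after seeing the data, 1956 genes were called from con to Lt.

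With 2 samples a group, and 57 and 14 counts of Angpt2 in con, moderate changes of Angpt2 could not be separated from the spread between replicates.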
